A study of Rattus norvegicus with 57 samples.

Results

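Aquaporins are membrane channels for water, and some of them also pass glycerol. The analysis covers 6 of them (Aqp1, Aqp2, Aqp3, Aqp4, Aqp6 and Aqp7) and Avpr2, the vasopressin V2 receptor, in the kidney cortex of rats given cisplatin. These 7 genes are the ones of that family and receptor chosen by name, with earlier results of these data known. Each is read from the probe set of its symbol with the highest mean. All 7 were among the 11683 genes tested, from the probe sets 1369625_at (Aqp1), 1368568_at (Aqp2), 1387100_at (Aqp3), 1372190_at (Aqp4), 1369298_at (Aqp6), 1368317_at (Aqp7) and 1369873_at (Avpr2). In the kidney, Aqp1 lets water through the proximal tubule and the thin descending limb, and Aqp7 passes water and glycerol in the last stretch of the proximal tubule. In the collecting duct, vasopressin binds Avpr2 on principal cells, cyclic AMP rises, and vesicles that carry Aqp2 fuse with the luminal membrane. Water then leaves the cell on the blood side through Aqp3 and Aqp4, while Aqp6 sits in vesicles of acid-secreting intercalated cells.

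Male rats of the strain Han Wistar [Crl:WI(Han)], 8 weeks old, had 1 intraperitoneal injection of saline, or of cisplatin at 1 or 3 mg/kg, a platinum anticancer drug that injures renal tubules. Kidneys were taken 3, 5, 8 or 26 days later, and RNA from a cortex-enriched homogenate was put on 1 Affymetrix rat expression array per animal. The 57 arrays form 12 groups with 5 animals each, except for 3 animals at 1 mg/kg on day 5 and 4 controls on day 26, where the design text gives 6 animals per group. Control rats carried no other treatment than saline, and the labels call the animals of a group biological replicates.

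The values are MAS5 signals, a linear brightness for each probe set that is scaled to the same trimmed mean on every array. The trimmed mean was 99.99 on all arrays, the array medians lay between 20.3 and 26.2, and arrays of 1 group correlated with r of 0.973 to 0.993 across probe sets. Differences are on the scale of log2(signal + 16), which understates changes of dim genes, and come from limma with a mean for each group. A gene passed the test where its two-sided p, adjusted by the Benjamini-Hochberg method over all genes tested, was under 0.05. Aqp6 was dim: its signal ranged from 7.54 to 19.3, and it lay above its array's 40th percentile on 40 of 57 arrays. The other 6 genes lay above that percentile on all 57. Signals of different probe sets depend on their probes, so the levels of different genes are not compared.

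The promoters of 3 genes are shown because, as groups, the 3 mg/kg kidneys of day 8 had lower Aqp2 and Aqp3 and higher Aqp1 than controls. The windows searched were those of 6 of the 7 genes, with 2 for Aqp4 and none for Aqp7. Each sequence is the 250 bases before the RefSeq start of transcription in the rat assembly GRCr8. Aqp2 lies on the plus strand at chr7:132590036-132590285, Aqp3 on the minus strand at chr5:61040684-61040933, and Aqp1 on the plus strand at chr4:85812534-85812783.
Aqp2: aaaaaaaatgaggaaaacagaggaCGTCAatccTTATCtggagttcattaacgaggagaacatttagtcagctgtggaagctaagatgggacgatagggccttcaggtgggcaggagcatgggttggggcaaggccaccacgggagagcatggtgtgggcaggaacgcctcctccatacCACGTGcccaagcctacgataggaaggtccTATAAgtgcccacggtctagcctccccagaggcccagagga
Aqp3: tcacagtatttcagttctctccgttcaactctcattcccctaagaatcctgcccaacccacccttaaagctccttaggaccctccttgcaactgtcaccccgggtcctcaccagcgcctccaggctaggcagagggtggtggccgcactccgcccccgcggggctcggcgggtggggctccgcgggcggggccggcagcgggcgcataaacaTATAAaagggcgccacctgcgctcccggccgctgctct
Aqp1: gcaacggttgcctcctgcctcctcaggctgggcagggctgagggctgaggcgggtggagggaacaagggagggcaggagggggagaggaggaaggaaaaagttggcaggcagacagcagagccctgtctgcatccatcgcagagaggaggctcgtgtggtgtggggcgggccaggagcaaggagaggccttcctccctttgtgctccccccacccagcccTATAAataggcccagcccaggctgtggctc
Capitals mark 4 short motifs. They are the cyclic AMP response half-site TGACG, the GATA core GATAA and the E-box CACGTG on either strand, and the TATA box TATAA on the gene's own strand. No marked motifs overlap. With 50 bases after the start added to the window, 21.2% of 33469 rat promoters held the half-site, 26.5% the GATA core, 6.4% the E-box and 18.4% the TATA box. The Aqp2 promoter held all 4, with the half-site beginning at -226, the GATA core at -217, the E-box at -71 and the TATA box at -41 from the start. The Aqp3 and Aqp1 promoters held only the TATA box, at -38 and at -30. The Avpr2 window held the GATA core at -185, the Aqp6 window the E-box at -95, and 1 of the 2 Aqp4 windows the TATA box at -77. The full response element TGACGTCA was in none of the 7 windows searched, against 1.8% of all promoters. The short element GGAAA, searched on either strand and left unmarked, was in the windows of Aqp1, Aqp2, Aqp4 and Aqp6 and in 62.7% of all promoters. In RefSeq's gene order Aqp2, Aqp5 and Aqp6 stand side by side on chromosome 7, and Aqp7 and Aqp3 are neighbours on chromosome 5.

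**Figure D1:**
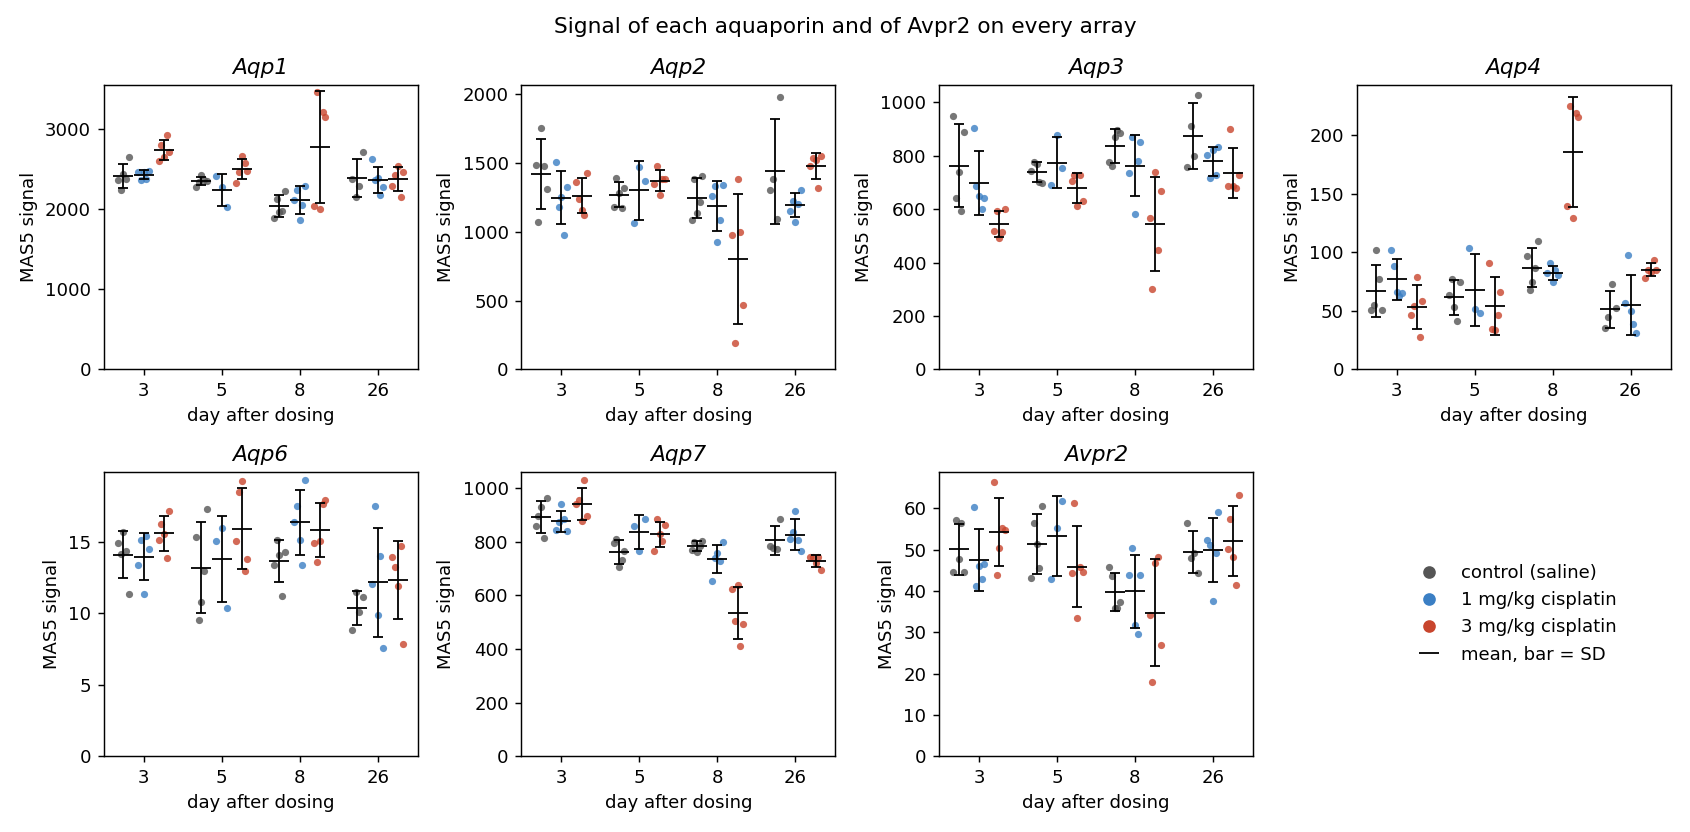
MAS5 signal of each gene (y axis, linear, from 0) on each of the 57 arrays, by day after dosing (x axis), with control, 1 mg/kg and 3 mg/kg side by side within a day. Points are animals and bars are mean and SD. On day 8 at 3 mg/kg, Aqp4 reached 129 to 225 and Aqp7 410 to 638, outside the ranges of the day 8 controls.

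On day 8 after 3 mg/kg, 5 of the 7 genes differed from controls: Aqp1 and Aqp4 were higher, and Aqp2, Aqp3 and Aqp7 were lower. In the same comparison 37.3% of all genes passed. The median difference of the 7 genes was -0.17, beside 0.04 for all genes tested. On day 3, 1 of 7 passed (Aqp3, lower), where 9.85% of all genes did. No gene of the 7 passed on day 5, where 8.8% of all genes did, or on day 26, where 0.753% did. The tissue is a mixture, so in all that follows fewer cells of a type and less RNA per cell cannot be told apart.

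**Figure D2:**
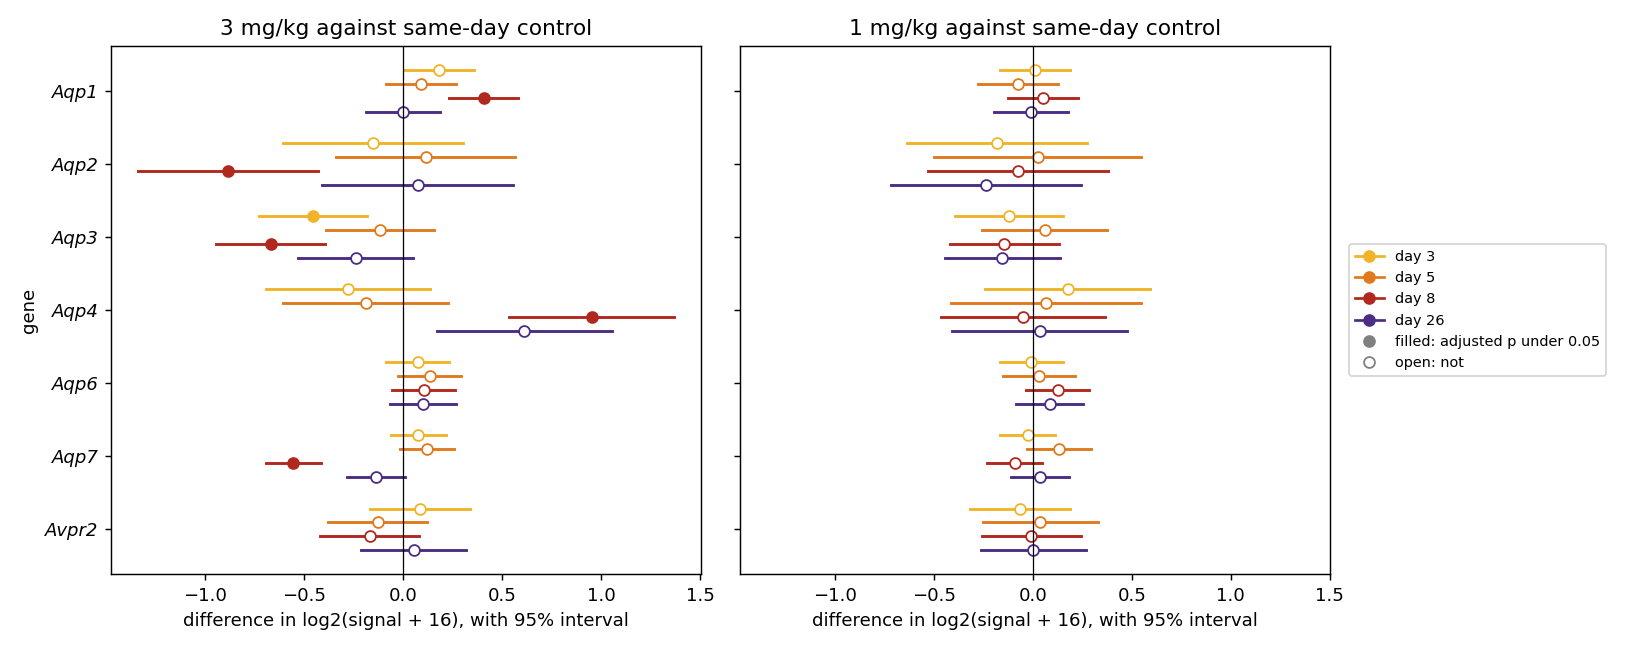
Difference from same-day controls in log2(signal + 16) (x axis) for each gene (y axis), at 3 mg/kg in the left panel and 1 mg/kg in the right, with colours for days. Lines are 95% intervals from limma and filled points passed the test. The 6 filled points are all at 3 mg/kg: Aqp3 on days 3 and 8, and Aqp1, Aqp2, Aqp4 and Aqp7 on day 8.

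Aqp1, the main water channel of the proximal tubule, had day 8 signals of 2038, 3462, 2010, 3222 and 3152 in the 3 mg/kg rats (replicates 1 to 5), against 1897, 2134, 1970, 1977 and 2225 in controls. Replicates 2, 4 and 5 lay above every control, and replicates 1 and 3 lay among them. The fitted difference was 0.41 ± 0.09 (SE), a 1.32-fold higher level, with a limma adjusted p of 0.000241. The SD of log2(signal + 16) over animals was 0.38 at 3 mg/kg and 0.09 in controls (n = 5 each). When the 2 groups were fitted alone, so that their own spread set the error, the SE was 0.15 and the adjusted p 0.0745, so the call was lost. A further Aqp1 probe set moved the same way, with signals of 680, 1523, 575, 1231 and 1404 at 3 mg/kg, against 629, 657, 648, 707 and 748 in controls. Its difference was 0.56, with a limma adjusted p of 0.000439.

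Of 6 proximal tubule markers, 1 passed on day 8: Slc5a2, the glucose transporter SGLT2 of the early proximal tubule, was lower by a log2 difference of -1.25. The summed signal of the 6 markers was 12120 to 13950 in 3 mg/kg rats and 11540 to 13610 in controls, so the ranges overlapped. Of 3 thin descending limb markers, Cldn4, a tight junction claudin also made in distal segments, was higher by 1.93. The sum of those 3 markers was 202 to 345 at 3 mg/kg and 85.5 to 96 in controls. Cldn4 made up most of it, with 164 to 315.5 at 3 mg/kg and 48.5 to 63.7 in controls. The other 2, Slc14a2 and Bst1, did not pass, with differences of 0.21 and -0.08. The part of these cells in the Aqp1 result was not tested.

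Aqp7, the glycerol and water channel of the straight proximal tubule, had signals of 624, 505, 638, 410 and 495 in the 3 mg/kg rats on day 8, against 769, 801, 761, 784 and 803 in controls. All 5 treated animals lay below all 5 controls. The difference was -0.56 ± 0.07 (SE), a fold of 0.68, with a limma adjusted p of 7.99e-09, the smallest of the 7 genes. Thus Aqp1 and Aqp7, both placed in the proximal tubule, moved in opposite directions on day 8. Aqp7 is also made in adipocytes. Of 2 adipocyte markers measured, Cidec was lower by -0.69, while Adipoq went the other way without passing, and the median of the 2 was -0.26. Their summed signal was 43.9 to 90.5 at 3 mg/kg and 49.7 to 148 in controls, so the ranges overlapped. The part of adipocytes in the Aqp7 result was not tested.

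Avpr2, the receptor at the head of the collecting duct pathway, had signals of 34.1, 17.9, 46.7, 48.1 and 26.9 in the 3 mg/kg rats on day 8, against 45.7, 43.7, 35.8, 35.9 and 37.4 in controls. Replicates 1, 2 and 5 lay below every control and replicates 3 and 4 above every control. The difference was -0.17, with a 95% interval of -0.42 to 0.08 and a limma adjusted p of 0.293. A further Avpr2 probe set had signals of 4.23 to 12.7 at 3 mg/kg and 3.59 to 8.51 in controls. It lay above its array's 40th percentile on 2 of 57 arrays and failed the filter on low values, so no direction is read from it.

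Aqp2, the vasopressin-regulated channel of the luminal membrane, had signals of 978.7, 194.7, 1383, 1001 and 467.4 in the 3 mg/kg rats on day 8, against 1084, 1386, 1138, 1219 and 1403 in controls. Replicates 1, 2, 4 and 5 lay below every control, and replicate 3 lay among them. Replicate 2 had 0.168 of the control mean, on the scale of signal + 16, and replicate 5 had 0.385 of it. The difference was -0.89 ± 0.23 (SE), a fold of 0.54, with a limma adjusted p of 0.00158. Without replicate 2 it was -0.47, with an adjusted p of 0.02. With the 2 groups fitted alone the SE was 0.41 and the adjusted p 0.136, so the call was lost.

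Aqp3, which takes water and glycerol across the basolateral membrane of principal cells, had signals of 567, 299.5, 738.6, 445.3 and 667.3 in the 3 mg/kg rats on day 8, against 776.6, 761.4, 869.2, 896.6 and 883.2 in controls. The groups did not overlap, and replicate 3 lay nearest to the controls. The difference was -0.67 ± 0.14 (SE), a fold of 0.63, with a limma adjusted p of 9.91e-05. With the 2 groups fitted alone the adjusted p was 0.0282. Replicate 2 was the lowest animal for Avpr2, Aqp2 and Aqp3, and replicate 3 the highest for Aqp2 and Aqp3.

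Aqp4, the other basolateral water channel of principal cells, went the opposite way. Its signals were 139.7, 225, 129.2, 218.7 and 215.2 in the 3 mg/kg rats on day 8, against 96.6, 67.5, 74.3, 86.9 and 109 in controls. All 5 treated animals lay above all 5 controls. The difference was 0.95 ± 0.21 (SE), a 1.93-fold higher level, with a limma adjusted p of 0.000257. A dimmer Aqp4 probe set, above its array's 40th percentile on 17 of 57 arrays, gave 0.38 with an adjusted p of 0.00961, from signals of 16.7, 25.9, 20.3, 24.6 and 32.4 at 3 mg/kg, against 12.4, 10.1, 14.8, 17.9 and 18.2 in controls.

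Aqp6, the vesicle channel of intercalated cells, had 13.6 to 17.9 signal units in the 3 mg/kg rats on day 8 and 11.2 to 15.1 in controls. Its difference was 0.10, with a 95% interval of -0.06 to 0.26 and a limma adjusted p of 0.316. Of 4 intercalated cell markers, Atp6v1b1, a proton pump subunit, was lower by -0.88, and the sum of the 4 was 723 to 867 at 3 mg/kg and 912 to 1139 in controls.

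**Figure D3:**
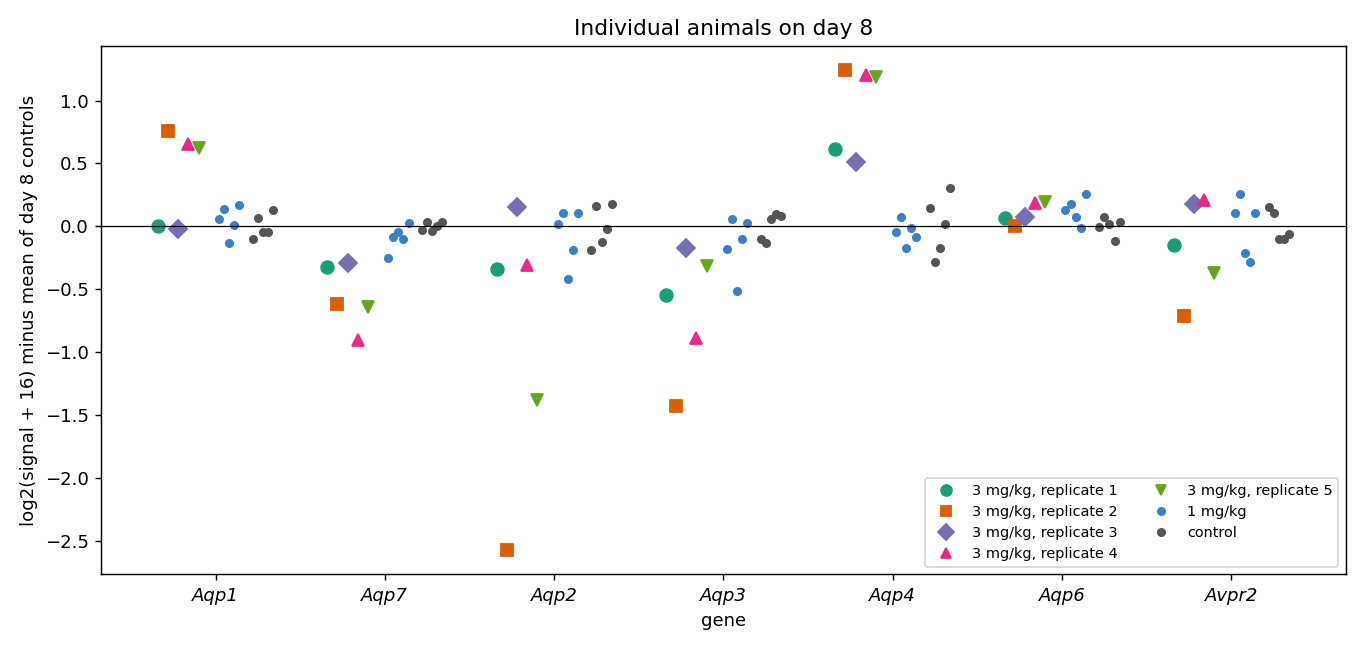
Each day 8 animal's log2(signal + 16) minus the mean of the day 8 controls (y axis) for each gene (x axis), with the 3 mg/kg animals by replicate on the left of each gene, then 1 mg/kg, then control. Replicate 2 sits at -2.58 for Aqp2 and at 0.76 for Aqp1, while replicate 3 sits at 0.16 and -0.02.

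Of 5 principal cell markers, 3 were lower on day 8 in the rats in which Aqp2 and Aqp3 were lower: Kcnj1, the potassium channel ROMK that is also in the thick limb, by -1.67, Hsd11b2, which inactivates glucocorticoids, by -0.91, and Scnn1b, a subunit of the sodium channel ENaC, by -0.37. Fxyd4, a regulator of the sodium pump, gave -0.16, with a limma adjusted p of 0.397, and Scnn1g, another ENaC subunit, gave -0.26 with 0.0518. The summed signal of the 5 was 903 to 1583 in 3 mg/kg rats and 2094 to 2389 in controls, with no overlap, and none of the 5 was near 0. Hsd11b2 made up most of the sum, with 557 to 1054 at 3 mg/kg and 1357 to 1633 in controls. Scnn1b had 84.1 to 138.5 and 130.8 to 174.9, and Scnn1g 72.1 to 170.5 and 129.9 to 163.1, so both overlapped controls. The part of principal cells in the Aqp2, Aqp3, Aqp4 and Avpr2 values was not tested.

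The thick ascending limb, a segment upstream of the distal convoluted tubule and the collecting system, was measured beside them. All 4 of its markers passed and were lower, with a summed signal of 114 to 3558 at 3 mg/kg and 6753 to 8392 in controls. Umod, which encodes uromodulin of that segment, had signals of 785.5, 2.68, 921, 21.6 and 5.37 in the 3 mg/kg rats, against 2393 to 3177 in controls. The 3 animals lowest in Umod, replicates 2, 4 and 5, were also those with Aqp1 above every control and Aqp4 above 215. Slc12a3, the salt cotransporter of the distal convoluted tubule, had 347.8, 43.6, 500, 332.9 and 137.2 at 3 mg/kg, against 806.5 to 902.5 in controls. Its lowest animals, replicates 2 and 5, were the lowest for Aqp2 and Avpr2 too. Of 4 macrophage markers 3 were higher and passed, with a sum of 224 to 356 at 3 mg/kg and 168 to 214 in controls. Of 5 endothelial markers 3 were lower and passed, with a sum of 899 to 1022 at 3 mg/kg and 1009 to 1145 in controls. The part of any of these in the results was not tested.

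The RNA quality measure taken from the arrays, the ratio of 3' to 5' actin signal, was 5.3 ± 0.53 in the 3 mg/kg rats on day 8 and 5.32 ± 0.48 in controls (SD, n = 5 each). With that ratio in the fit the differences were 0.41 for Aqp1, -0.88 for Aqp2, -0.67 for Aqp3 and 0.95 for Aqp4. Each of the 4 passed, as did Aqp7. The ratio hardly differed between these groups, so this fit could move their differences little. The part of RNA quality was therefore not tested by it.

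On day 3 Aqp3 was the 1 gene that passed. Its signals were 518.3, 592.3, 492.9, 513.4 and 600.1 in 3 mg/kg rats, against 949.4, 640.8, 738.3, 591.3 and 889.8 in controls. Replicates 1, 3 and 4 lay below every control, and the other 2 overlapped the lowest control. The difference was -0.46 ± 0.14 (SE), a fold of 0.73, with a limma adjusted p of 0.0234. The call rested on single animals: it was lost without control replicate 1 (-0.37, adjusted p 0.0873) or 5 (-0.40, 0.0789), and without 3 mg/kg replicate 1 (-0.44, 0.051), 3 (-0.42, 0.0586) or 4 (-0.44, 0.0542).

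Other measures moved on day 3 too. The actin ratio was 5.89 ± 0.10 in 3 mg/kg rats and 4.66 ± 0.25 in controls (SD, n = 5 each), and with the ratio in the fit the Aqp3 difference was -0.51 with a limma adjusted p of 0.0448. Both erythroid markers measured were lower and passed: Hbb, a haemoglobin chain, by -1.47 and Alas2, of red cell haem synthesis, by -0.92, with a sum of 506 to 1080 at 3 mg/kg and 1627 to 2770 in controls. Havcr1 was higher by 3.47 and passed, the 1 of 3 injury markers to do so, with a sum of 415 to 613 at 3 mg/kg and 222.5 to 256 in controls. Of the 3 thin descending limb markers Cldn4 was higher by 0.96 and passed, with a sum of 146 to 200.4 at 3 mg/kg and 85.2 to 103 in controls. The part of these in the Aqp3 and Aqp1 values of day 3 was not tested. Aqp1 and, in humans, Aqp3 are found in red cells, and the part of these cells was not tested. None of the 5 principal cell markers passed on day 3, when their sum was 1940 to 2129 at 3 mg/kg and 1982 to 2188 in controls. Aqp2 had a difference of -0.15 (95% interval -0.61 to 0.30) on day 3, from signals of 1123 to 1428 at 3 mg/kg and 1069 to 1752 in controls.

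Aqp1 on day 3 had signals of 2608 to 2925 in 3 mg/kg rats and 2248 to 2650 in controls, with 4 of 5 treated animals above every control. Its difference of 0.18 had a limma adjusted p of 0.183. With the 2 groups fitted alone the adjusted p was 0.0363, and with arrays weighted by their quality it was 0.0439. With the actin ratio in the fit the difference was 0.09, and the further Aqp1 probe set gave -0.09, so the 2 probe sets differed in sign on day 3.

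On day 5 no gene of the 7 passed at 3 mg/kg in limma, and none had an unadjusted p under 0.05. The differences were 0.09 for Aqp1, 0.11 for Aqp2, -0.12 for Aqp3, -0.19 for Aqp4, 0.13 for Aqp6, 0.12 for Aqp7 and -0.13 for Avpr2. Aqp2 signals were 1267 to 1475 at 3 mg/kg and 1173 to 1390 in controls. Aqp3 signals were 612 to 728 and overlapped the 698 to 777 of controls. At the same time Havcr1, the tubule injury marker KIM-1, was higher by 4.85 and passed.

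The difference at 3 mg/kg changed between days 5 and 8 for 4 of the 7 genes, where 16.3% of all genes changed in limma's interaction contrast. Aqp4 shifted upward by 1.14 (adjusted p 0.00533), and Aqp7 by -0.68 (8.68e-06), Aqp2 by -1.0 (0.0249) and Aqp3 by -0.55 (0.04) downward. Without 3 mg/kg day 8 replicate 2 the Aqp2 shift was -0.58 (0.0645) and the Aqp3 shift -0.36 (0.128), and neither passed. The Aqp2 shift was also lost without replicate 5 (-0.88, 0.0632). The Aqp3 shift was also lost without any of 9 other animals, 1 at a time, and with array weights (-0.47, 0.054). With the groups of both days fitted alone the adjusted p was 0.154 for Aqp2 and 0.107 for Aqp3. With the dimmer probe set of Aqp4, the Aqp4 shift was 0.33 (0.164). The shift of Aqp1 was 0.32 (0.069) with its main probe set and 0.70 (0.00533) with its further one.

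By day 26 no gene of the 7 passed, although 1857 of all genes had an unadjusted p under 0.05, Aqp4 among them. Aqp4 signals were 78.1, 84.9, 83.2, 93.5 and 85.1 in 3 mg/kg rats, against 35.1, 44.9, 72.6 and 52.8 in controls. The groups did not overlap, and the difference was 0.61 ± 0.22 (SE), with a limma adjusted p of 0.14. The dimmer Aqp4 probe set gave 0.16 with 0.558.

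Aqp4 controls themselves were lower on day 26 than on day 8, at 35.1 to 72.6 and 67.5 to 109, a difference of -0.63 with an adjusted p of 0.139. No gene of the 7 passed between these control groups, where 1.28% of all genes did. Of the 7, Aqp1 and Aqp4 had an unadjusted p under 0.05 there.

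Aqp7 also separated without overlap on day 26, with 743.8, 742.5, 720.2, 741.9 and 694.6 at 3 mg/kg, against 785, 776.4, 773.2 and 886.3 in controls. Its difference was -0.14, with an adjusted p of 0.342. How many of all genes separated without overlap was not counted, here or in the other comparisons. Aqp3 had 678.5 to 900.8 at 3 mg/kg and 755.7 to 1028 in controls, and 4 of 5 treated animals were below every control. Its difference was -0.24, with a 95% interval of -0.53 to 0.05. Aqp2 signals were 1316 to 1551 at 3 mg/kg, inside the 1091 to 1976 of controls. The 95% interval of the difference was -0.19 to 0.18 for Aqp1 and -0.22 to 0.32 for Avpr2.

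Between days 8 and 26 the difference at 3 mg/kg changed for 3 of the 7 genes, where 15% of all genes changed. Aqp2 shifted by 0.96 (adjusted p 0.0392), Aqp7 by 0.42 (0.00261) and Aqp1 by -0.41 (0.0225), each toward its controls. The shift of Aqp3 was 0.43 (0.139), and that of Aqp4 was -0.34, with a 95% interval of -0.95 to 0.27, so neither passed. Without 3 mg/kg day 8 replicate 2 the shifts were 0.54 for Aqp2 (0.114) and -0.32 for Aqp1 (0.0726). Without replicate 5 they were 0.84 (0.0901) and -0.35 (0.0609). With 1 animal left out at a time, the Aqp2 shift passed in 9 of 19 fits, and it did not pass with the actin ratio in the fit (0.89, 0.0673). The Aqp1 shift passed in 15 of 19, and was also lost without 3 mg/kg day 8 replicate 4 (-0.34, 0.0638) or control day 26 replicate 4 (-0.34, 0.0752). The Aqp7 shift passed in all 19.

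At 1 mg/kg no gene of the 7 passed on any day in limma, and none had an unadjusted p under 0.05. Of all genes 0.0942% passed at day 3, and 0.0171% at day 5. On day 8 the share of all genes was 0.522%, and by day 26 it was 0.00856%. The differences of the 7 genes from controls lay between -0.24 (Aqp2, day 26) and 0.18 (Aqp4, day 3). For Aqp2 on day 8 the 95% interval was -0.53 to 0.38, and for Aqp4 -0.46 to 0.37, so changes of that size remained possible. Aqp7 had the narrowest interval on day 8, from -0.23 to 0.05.

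At 1 mg/kg the animals differed widely in Havcr1 on day 8. In none of the 7 genes was a single animal of that group flagged by the screen given below. Havcr1 was 911.8, 32.4, 1085, 32.9 and 17.6 in replicates 1 to 5, against 1.74 to 10.2 in controls. Replicate 3 had the lowest Aqp2 of that group, 921.6 beside 1086 to 1338 in the others, and the lowest Aqp3, 579.9 beside 735.3 to 868.7. It also had the lowest Aqp1 and Aqp4, 1862 and 74.5, although both genes were higher at 3 mg/kg as a group. Its Aqp7 was 758.4. Replicate 1, also high in Havcr1, had Aqp2 of 1259, inside the 1084 to 1403 of controls. Replicate 1 had the lowest Aqp7, 654.3 beside 729.1 to 798.9. Its array also had the highest actin ratio of all 57, 8.58 beside a median of 5.17, and the part of RNA quality in its values was not tested. Umod was 1157 in replicate 3 and 2424 to 3075 in the others.

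The 2 doses differed on day 8 for the same 5 genes that differed from controls, where 23.1% of all genes differed. At 3 mg/kg relative to 1 mg/kg, Aqp4 was higher by 1.00 (adjusted p 0.00024) and Aqp1 by 0.35 (0.00193), while Aqp2 differed by -0.81 (0.00591), Aqp3 by -0.53 (0.0029) and Aqp7 by -0.46 (1.1e-06). Aqp4 and Aqp7 did not overlap between the doses, with 129 to 225 and 410 to 638 signal units at 3 mg/kg, against 74.5 to 91 and 654.3 to 798.9 at 1 mg/kg. Without 3 mg/kg replicate 2 the Aqp2 difference was -0.39 (0.0817) and the Aqp3 difference -0.34 (0.0411). With the 2 dose groups fitted alone the adjusted p was 0.192 for Aqp1, 0.263 for Aqp2 and 0.156 for Aqp3, and those 3 no longer passed. Avpr2 differed by -0.16, with a 95% interval of -0.42 to 0.09.

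On the other days no gene of the 7 differed between doses, where 3.12% of all genes did on day 3, 3.97% on day 5 and 0% on day 26. The day 26 count of 0 was limma's, and 1197 genes had an unadjusted p under 0.05 there. Among them were Aqp4, with a difference of 0.58 (limma adjusted p 0.338), and Aqp7, with -0.18 (0.36). Aqp7 and Aqp2 did not overlap between the doses on day 26. On day 3 Aqp3 had 492.9 to 600.1 at 3 mg/kg and 600.6 to 903 at 1 mg/kg, a difference of -0.34 with an adjusted p of 0.159. Aqp1 had 2608 to 2925 at 3 mg/kg and 2370 to 2483 at 1 mg/kg, a difference of 0.17 with 0.29.

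Over the 12 groups, the order of mean levels had few gaps wider than the larger SD of the groups on either side. Aqp4 stood highest at 3 mg/kg on day 8, 0.95 above the next group, which was the day 8 controls. Aqp7 stood lowest there, 0.45 under the 3 mg/kg group of day 26. For Aqp3 the 2 lowest groups were 3 mg/kg on days 8 and 3. The day 3 group lay 0.32 under the 3 mg/kg group of day 5, a gap wider than the SD of either. The day 8 group, lowest by 0.06, had an SD of 0.50. Its signals of 299.5 to 738.6 covered the 612 to 728.3 of the 3 mg/kg group of day 5. Aqp2 was lowest at 3 mg/kg on day 8 by 0.81, which did not exceed that group's SD of 1.1. For Aqp1, Aqp6 and Avpr2 no neighbouring groups differed beyond their SD.

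**Figure D4:**
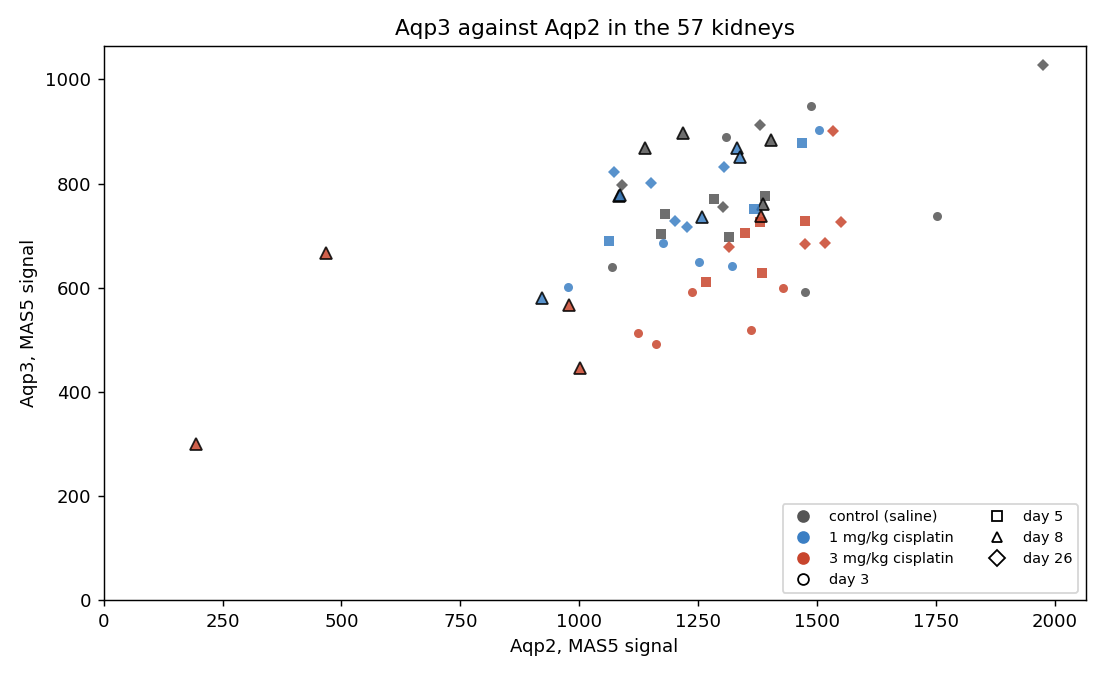
MAS5 signal of Aqp3 (y axis) against Aqp2 (x axis) in the 57 kidneys, both linear from 0, with colours for dose and symbols for day. The 3 mg/kg animals of day 8 reach the lowest values of both genes, 194.7 for Aqp2 and 299.5 for Aqp3, and the 3 mg/kg animals of day 3 have Aqp3 of 492.9 to 600.1 beside Aqp2 of 1123 to 1428.

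As a description over the 57 arrays, log2 values minus the same-day control mean correlated between Aqp2 and Aqp3 with r = 0.69, between Aqp2 and Avpr2 with 0.59 and between Aqp4 and Aqp7 with -0.66. Aqp3 and Avpr2 had 0.273, and Aqp1 had -0.581 with Aqp2 and -0.585 with Aqp7. The arrays share doses and days, and r of these pairs was not computed without the 3 mg/kg arrays of day 8. The genes most like Aqp2 were Arnt2, a transcription factor subunit, Slc12a3 and Uap1l1, with r of 0.88, 0.85 and 0.83. Without the 3 mg/kg arrays of day 8 (52 arrays) these were 0.56, 0.35 and 0.43. For Aqp3 they were Vkorc1, which recycles vitamin K (0.81, and 0.64 without those arrays), Cdadc1 (0.80 and 0.58) and Stx7, an endosomal fusion protein (0.76 and 0.53).

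The genes most like Aqp1 were Gpx4, which reduces lipid peroxides (0.91, and 0.71 without those arrays), Bsg, the membrane protein basigin (0.87 and 0.72), and Hpd, of tyrosine breakdown (0.86 and 0.71). For Aqp7 they were Pzp (0.85 and 0.40), Thap4 (0.85 and 0.52) and Smim1 (0.84 and 0.31). For Aqp4 they were Minpp1, an inositol phosphate phosphatase (0.67 and 0.45), Kif5b, a kinesin motor (0.64 and 0.44), and Map2k5, a kinase (0.62 and 0.34). For Avpr2 they were Aspdh (0.66 and 0.55), Inpp5j (0.64 and 0.59) and Nbl1 (0.64 and 0.61), and for Aqp6 Krt20, Gjc1 and Spp1 at 0.50, 0.49 and 0.47.

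Of the genes that carry the vasopressin signal inside the cell, 13 were measured, and at 3 mg/kg on day 8 1 was higher and 3 were lower, where 37.3% of all genes passed in either direction. Adcy3, an adenylyl cyclase, was higher by 0.35. Creb1, the factor that binds cyclic AMP response elements, was lower, with a difference of -0.46 and signals of 71.8 to 107 at 3 mg/kg and 107 to 143 in controls. Adcy6, the cyclase that makes most of the cyclic AMP in response to vasopressin in mouse collecting ducts, had a difference of -0.33, and Prkar2a, a regulatory subunit of protein kinase A, -0.16. The median of the 13 was 0.01. Pde4d, a phosphodiesterase that breaks down cyclic AMP, was lower on days 3 (-0.45) and 5 (-0.36), and Prkar2a on day 3 (-0.29). Avp and Avpr1b were too dim to test.

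Of 16 genes for the vesicle traffic of Aqp2, 5 were higher and 3 lower at 3 mg/kg on day 8, with a median of 0.09. Of all genes, 9.85% passed at day 3, 8.8% at day 5 and 37.3% at day 8, and none of the pathway lists was tested against these shares. Anxa2, a membrane-binding annexin, was higher by 1.39, with signals of 412 to 864 at 3 mg/kg and 220 to 261 in controls. Nedd4 and Nedd4l, ubiquitin ligases, were higher by 0.39 and 0.28, and Dnm2, the dynamin that pinches off endocytic vesicles, had a difference of -0.46. On day 5 Anxa2 was higher by 0.91 and Stx4, a fusion protein of the target membrane, by 0.19. On the same day Rab5a, of early endosomes, differed by -0.50 and Rhoa, a regulator of the actin cortex, by -0.13. On day 3 the 1 gene that passed was Snap23, another fusion protein, at -0.64, with signals of 203 to 328 at 3 mg/kg and 360 to 485 in controls.

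Of 4 factors reported to act on Aqp2 transcription, Elf3 was higher on days 5 (0.37) and 8 (0.48), and Gata3 on day 5 (0.41), with none lower. Of 6 genes for osmolyte and urea transport, Slc5a3, which carries myo-inositol, was higher by 0.83 on day 5 and differed by -0.57 on day 8, and Slc6a6, which carries taurine, differed by -0.59 on day 3 and 0.25 on day 8. Hspa4l, an osmotic stress chaperone, differed by -0.33 on day 3. Of 7 genes for local antagonists of vasopressin, Ptgs2, the inducible cyclooxygenase that starts prostaglandin synthesis, differed by -0.89 on day 5 and -1.28 on day 8. Its day 8 signals were 5.78 to 37.3 at 3 mg/kg and 63.2 to 86.7 in controls. Ptger3, a prostaglandin E2 receptor, was higher by 0.61 on day 5, and Adora1, an adenosine receptor, by 0.28 on day 8. The day 8 medians of these lists were 0.22, 0.01 and 0.12, beside 0.04 for all genes tested.

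Of 3 other aquaporins measured, none passed. Aqp11, an aquaporin of intracellular membranes in the proximal tubule, had 100 to 438 signal units at 3 mg/kg on day 8 and 124 to 159 in controls, a difference of 0.39 with an adjusted p of 0.332. Aqp8 and Aqp12a were dim, with control means of 6.16 and 19.9 on day 8, and Mip, Aqp5 and Aqp9 were too dim to test. In these pathway lists no gene passed at 1 mg/kg on any day, or at 3 mg/kg on day 26. Among cell type markers, 1 of the 3 of the thin descending limb was higher and passed at 1 mg/kg on day 8. The sum of those 3 was then 94.4 to 352 at 1 mg/kg and 85.5 to 96 in controls.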

How the data were processed

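The values are intensity signals that the authors deposited for 31099 probe sets on 57 arrays, which per the submitters' processing notes came from MAS5, in a version not given in the sources used here. Each array was taken as 1 animal, and the number of arrays limits the precision. Probe sets were named through the platform annotation, with 20758 updated by Entrez number to RefSeq GRCr8 symbols; 436 had several genes and 9780 had none. Probe sets above their array's 40th percentile on at least 3 arrays were kept (21829), and the highest-mean probe set stood for each gene. Of 11 probe sets of the 7 genes, 9 were kept. Values were log2(signal + 16).

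A mean for each of 12 groups was fitted with limma 3.58.1 in R 4.3.3 (empirical Bayes with a trend), with Benjamini-Hochberg adjustment over 11683 genes and a threshold of 0.05. The fit was run on simulated data in which a gene had the same spread in all 12 groups. The wider spread seen at 3 mg/kg on day 8 was therefore not covered by it. The alternatives changed the offset, filter, probe set rule, scaling, covariates, array weights, the samples fitted and single arrays. The same-day controls are shared by both doses. The 7 genes and all lists were chosen with earlier results of these data known. All 7 genes are described whatever their result, and from each pathway list at most 4 genes that passed per comparison, by size of change. The 3 genes most like each of the 7 are by Pearson r over 57 arrays.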

Additional observations from a re-analysis of the deposited data

Results flagged for a closer look

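Single animals stood apart in 2 of 77 sets of values of 1 gene in 1 group, where chance alone marks about 1 group in 20. Aqp3 was 900.8 in 3 mg/kg replicate 2 on day 26, beside 678.5 to 727.1 in the others of its group. Aqp7 was 886.3 in control replicate 4 on day 26, beside 773.2 to 785 in the other controls.

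The log2 difference between 3 mg/kg and control changed between days for 5 genes, tested in limma as an interaction. From day 5 to day 8 the shift was -1.0 for Aqp2, -0.55 for Aqp3, 1.14 for Aqp4 and -0.68 for Aqp7. From day 8 to day 26 it was -0.41 for Aqp1, 0.96 for Aqp2 and 0.42 for Aqp7.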

How the results depend on the processing

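Of 1560 values of the 7 genes under alternative settings, 1540 kept their direction or stayed uncalled, 12 lost a call, 8 gained one and 0 called values reversed. Another 46, counted among the 1540, changed sign without a call on either side. With the compared groups fitted alone, the genes that passed numbered 2 at 3 mg/kg on day 3 (Aqp1 joined Aqp3), 3 on day 8 (Aqp3, Aqp4, Aqp7), 1 between doses on day 3 (Aqp1), 2 between doses on day 8 (Aqp4, Aqp7), 2 for the change from day 5 to 8 (Aqp4, Aqp7) and 1 for that from day 8 to 26 (Aqp7). Of all genes, 2553 then passed at 3 mg/kg on day 8 against 4360 with all groups, and 535 against 2704 between doses. For the changes between days it was 1088 against 1909 and 868 against 1748. For day 3 the count of all genes with the groups alone is not given here, so no result is read from those counts. Array weights gave 2 genes of the 7 at 3 mg/kg on day 3, with 1732 of all genes against 1151, and 1 between doses on day 3 (Aqp3), with 1047 against 365. With the actin ratio in the fit 499 of all genes passed at 3 mg/kg on day 3. On day 26 the count of all genes at 3 mg/kg was 8 with the groups alone and 157 with array weights, against 88, and between doses it was 5 and 56, against 0. The cause was not tested.

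Leaving out 1 array at a time lost a call in 32 of 1134 values and added one in 3. It gave 0 to 1 genes at 3 mg/kg on day 3, 5 to 5 on day 8, 4 to 5 between doses on day 8, 2 to 5 for the change from day 5 to 8 and 1 to 4 for that from day 8 to 26. Shares of all genes are not given for these fits, so the counts show only how far the calls rest on single arrays. The lowest counts of both changes came without 3 mg/kg day 8 replicate 2, and that from day 8 to 26 also without replicate 5. The further probe sets of Aqp1, Aqp4 and Avpr2 were an alternative chosen after seeing the data.

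Replicate numbers did not pair the animals: same-numbered arrays deviated together with r of -0.168 to 0.259, and no comparison had every pair above 0.1. With a replicate block the genes of the 7 that passed at 3 mg/kg numbered 1, 0, 5 and 0 on days 3, 5, 8 and 26, and 4382 of all genes passed on day 8. Between doses on day 26 the block gave 13 of all genes, against 0 without it.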
